A study of Canis lupus with 20 samples.

Results

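HSD11B1, NR3C1, TSC22D3, FKBP5 and PER1 were followed in the left atrium and the left ventricle of dogs. The genes were chosen by name, as the enzyme that regenerates active glucocorticoid, the glucocorticoid receptor, and 3 genes that the receptor is known to induce. Earlier results of these data were known when they were chosen. Every array probe set annotated to 1 of these symbols alone was taken, which gave 15 of the 43035 probe sets on the array. Of these, 13 passed a filter on low signal and were tested, among 30047 tested in all: 2 for HSD11B1, 3 for NR3C1, 2 for TSC22D3, 2 for FKBP5 and 4 of the 6 for PER1. The dogs are labelled as normal animals of the species Canis lupus and had the right kidney taken out (uninephrectomy) or were sham operated. Hearts were taken 12 weeks later, and 5 samples each of sham left atrium, uninephrectomized left atrium, sham left ventricle and uninephrectomized left ventricle were hybridised, 1 array per sample, after 6 dogs had been assigned to each operation. The labels name no glucocorticoid treatment in any group. The questions were whether uninephrectomy shifts these genes in either chamber, and how the chambers differ.

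Glucocorticoid action in a tissue depends on local metabolism as well as on the hormone in blood. HSD11B1 is an enzyme of the endoplasmic reticulum that turns inactive cortisone back into cortisol, in fibroblasts, fat and liver among other cells, and it depends on H6PD for its cofactor, while HSD11B2 runs the opposite reaction. Cortisol binds NR3C1, which sits in the cytosol with HSP90 and co-chaperones and moves to the nucleus to switch genes on or off. TSC22D3 (GILZ) carries part of the anti-inflammatory effect, FKBP5 is a co-chaperone that lowers the receptor's affinity for hormone, and PER1 is a clock gene with a glucocorticoid response element.

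Values are log2 signals as deposited by the authors, so a difference of 1 is a doubling. Differences are given ± their standard error from a limma fit of all 20 arrays, with p-values adjusted by Benjamini-Hochberg over all 30047 tested probe sets and a call at an adjusted p under 0.05. Probe sets of a gene are numbered by brightness, and the brightest stands for the gene. Signals of different probe sets are not set against each other. The arrays had medians between 2.33 and 2.39. Marker lists matched the chamber labels: the mean of 7 atrial myocyte markers was 7.65 to 8.05 in atria and 4.05 to 5.42 in ventricles, and that of 5 ventricular markers was 2.51 to 3.69 and 7.40 to 7.97. The labels number the arrays 1 to 5 within a group. Sham atrial and ventricular arrays of equal number deviated from their group means together (correlations over probe sets from 0.209 to 0.463), whereas uninephrectomized arrays of equal number did not (from -0.235 to 0.115).

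HSD11B1 was low and even in sham atria and ranged widely after uninephrectomy. In sham atria its brightest probe set read 4.24, 4.03, 4.37, 4.31 and 4.07 on arrays 1 to 5. In uninephrectomized atria it read 8.03, 9.71, 4.92, 7.52 and 4.21. Arrays 1, 2 and 4 stood more than 3 log2 units above the highest sham atrium, array 3 lay just above the sham range and array 5 within it. In the ventricles it read 5.45, 4.84, 5.86, 5.03 and 3.77 in sham dogs and 5.14, 9.39, 4.79, 3.97 and 3.96 in uninephrectomized dogs. Here 1 array of 5 was high, and the other 4 overlapped the sham range. Array 2 was the highest in both uninephrectomized chambers, but equal numbers did not pair these arrays, and the labels do not say whether both came from 1 dog. Over probe sets, the deviations of these 2 arrays correlated at -0.069, and atrial array 2 correlated most with ventricular array 4. Whether they share a dog was not tested.

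The other HSD11B1 probe set gave the same picture. It read 3.50, 3.61, 3.15, 3.26 and 3.47 in sham atria and 7.32, 9.95, 3.77, 6.48 and 3.82 in uninephrectomized atria. These groups did not overlap, as was so for 0.929% of all tested probe sets. Ventricular values of this HSD11B1 probe set were 4.03, 3.97, 4.27, 4.11 and 3.37 in sham and 4.07, 9.41, 4.26, 3.72 and 3.24 in uninephrectomized dogs. The pair of probe sets correlated at 0.976 over the 20 arrays, as a description. Both probe sets were high on the same 4 arrays.

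**Figure D1:**
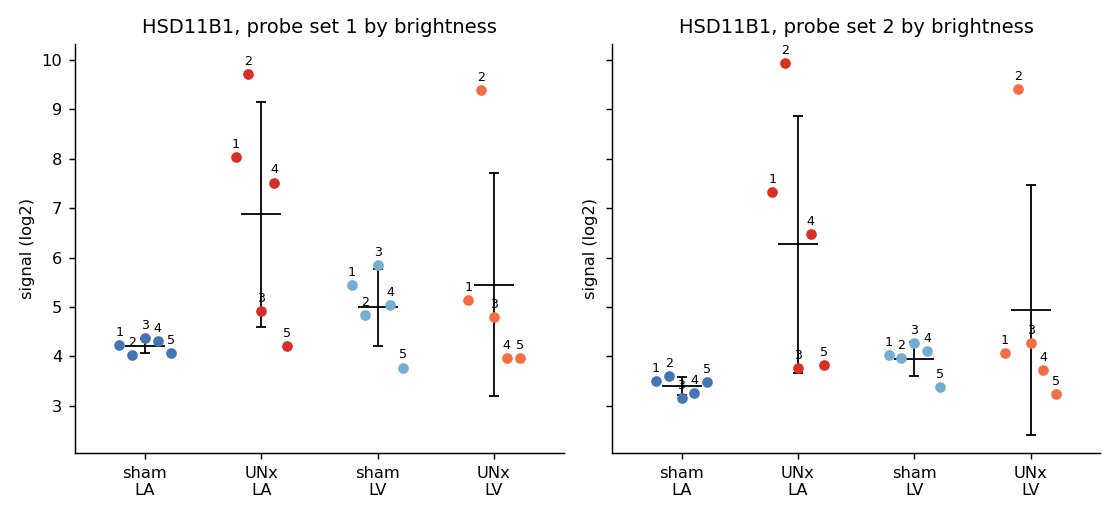
HSD11B1 signal (log2, vertical axis) on each of the 20 arrays, by group, for its 2 probe sets. Points are arrays with their label numbers, the wide bar is the group mean and the whiskers are ± 1 SD; LA is left atrium, LV left ventricle and UNx uninephrectomy. Sham atria lie between 4.03 and 4.37 for probe set 1, while 3 uninephrectomized atria and 1 uninephrectomized ventricle exceed 7.5 there.

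The mean difference of HSD11B1 after uninephrectomy in the atrium was 2.67 ± 0.97, a 6.37-fold higher mean with a 95% confidence interval from 1.55-fold to 26.1-fold. The log2 difference was 1.96 without uninephrectomized atrial array 2 and 3.34 without array 5. This mean difference was not called (adjusted p = 0.679). Only 3 of the 30047 tested probe sets had a larger positive difference, 1 of which was the other HSD11B1 probe set, at 2.87 ± 1.07 (adjusted p = 0.679). An exact two-sided permutation test over the 252 splits of 5 against 5 arrays gave p = 0.0318 for the brightest probe set. There 4 of 5 uninephrectomized atria lay above every sham atrium. For the other probe set this permutation test gave p = 0.00794, the smallest value this design allows. Every probe set whose groups do not overlap gives this value, and 0.929% of all tested probe sets had such atrial groups. In the ventricle the difference was 0.46 ± 0.97 (adjusted p = 0.956, higher in 1 of 5 arrays than any sham ventricle), and it changed sign to -0.52 when uninephrectomized ventricular array 2 was left out. The difference between the chambers' effects was 2.21 ± 1.37 with an interval from -0.67 to 5.09 (adjusted p = 1.00), so an effect restricted to the atrium was not shown.

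The arrays of 1 group spread differently for HSD11B1, which was not tested. Its SD was 0.15 in sham atria, 2.28 in uninephrectomized atria, 0.78 in sham ventricles and 2.26 in uninephrectomized ventricles. In uninephrectomized atria 26 of the 30047 tested probe sets had a larger SD, and in uninephrectomized ventricles 16 had. The median SD over tested probe sets was 0.16 in each kind of atrium, 0.17 in sham ventricles and 0.14 in uninephrectomized ventricles. The order of the group means was uninephrectomized atrium (6.88), uninephrectomized ventricle (5.45), sham ventricle (4.99) and sham atrium (4.21), and each neighbouring pair in that order differed by less than the larger of its SDs, except sham ventricle and sham atrium, whose difference of 0.78 equalled the SD of the ventricles. The chambers did not differ by the test in sham dogs (-0.78 ± 0.97, adjusted p = 0.629), or in uninephrectomized dogs (1.42 ± 0.97, adjusted p = 0.304). The standard error is shared over all groups, including the widely spread uninephrectomized ones. With only the sham arrays fitted, HSD11B1 probe set 2 was called lower in the atrium, at -0.55 ± 0.16 (adjusted p = 0.0397, exact permutation p = 0.0318). Both tests took the sham arrays as unpaired, though those of equal number deviated together. With the replicate number as a block this probe set was not called. On sham array 5 the order was reversed, at 3.47 in the atrium and 3.37 in the ventricle. Without uninephrectomized ventricular array 2, the ventricle highest in HSD11B1, the difference of the brightest probe set in uninephrectomized dogs became 2.41 ± 0.79 (adjusted p = 0.0343). Each of these 2 calls was the only 1 in 32 alternative analyses of that probe set and comparison. In sham dogs the brightest probe set was called in 0 of 32.

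HSD11B1 is known from fibroblasts and fat, so markers of these cells were read on the same arrays. In bulk tissue, more cells of a type and more RNA per cell cannot be told apart. The mean of 14 fibroblast markers was 8.23, 9.05, 8.06, 8.56 and 8.13 on uninephrectomized atrial arrays 1 to 5. The 3 arrays high in HSD11B1 thus had the 3 highest fibroblast means of that group. For array 1 this rank rested on 1 marker, POSTN, which read 4.786, 8.845, 2.19, 3.308 and 2.178 on arrays 1 to 5. With POSTN left out, arrays 2 and 4 stayed highest, but array 1 became the lowest, just below array 3. The group mean of all 14 markers was 8.40 in uninephrectomized and 7.98 in sham atria. Sham atria ranged from 7.55 to 8.37, the highest on array 5, where HSD11B1 read 4.07. In the ventricle with HSD11B1 at 9.39 the fibroblast mean was 6.66, the lowest of the 5 uninephrectomized ventricles, whose highest was 7.14. Of the 14 markers, TCF21 and C7 lay under log2 3 in each group.

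Adipocyte markers differed among themselves. The mean of 14 of them was 4.63, 4.13, 4.80, 4.51 and 4.41 in uninephrectomized atria, lowest on the array with the most HSD11B1, against 3.86 to 5.49 in sham atria and 3.40 to 3.71 in all ventricles. PLIN1, PLIN4, CIDEC, LEP, LIPE, PCK1 and THRSP, 7 of the 14, lay under log2 3 in each group. ADIPOQ, the fat hormone adiponectin, read 6.51, 3.10, 6.60, 5.51 and 5.44 in uninephrectomized atria. RBP4, a retinol carrier of fat and liver, read 8.78, 10.1, 8.30, 9.11 and 8.19 there, highest on the 3 arrays high in HSD11B1. It was the only one of the 14 with that order. In sham atria RBP4 ranged from 7.57 to 9.23, the highest on array 2, where HSD11B1 read 4.03. In uninephrectomized ventricle 2 RBP4 read 2.41, the lowest of its group. Macrophage markers, of which 7 of 12 were under log2 3, ranged from 3.62 to 3.94 in uninephrectomized and 3.30 to 3.82 in sham atria. The part of cell composition in the atrial difference was not tested.

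None of the other measured genes of glucocorticoid metabolism was called between operations. HSD11B2, which inactivates cortisol, had means of 3.70 ± 0.16 (SD) and 3.69 ± 0.17 (SD) in sham and uninephrectomized atria and 3.76 ± 0.11 (SD) and 3.72 ± 0.07 (SD) in the ventricles, with differences of -0.01 ± 0.09 and -0.03 ± 0.09. H6PD, the source of the HSD11B1 cofactor, was dim at 2.08 and 2.13 in the atria and 2.25 and 2.11 in the ventricles. H6PD differed by 0.05 ± 0.06 in the atrium and -0.14 ± 0.06 in the ventricle (adjusted p = 0.693). SRD5A3, a 5-alpha-reductase family member, differed by 0.26 ± 0.08 in the atrium (adjusted p = 0.646) and -0.05 ± 0.08 in the ventricle. Of 11 measured genes of the list, HSD11B1 included, none was called after uninephrectomy in either chamber, where 0.0% of all tested probe sets were called. Between chambers, SRD5A1, a 5-alpha-reductase that breaks down glucocorticoids, was lower in the atrium by test, at -0.88 ± 0.19 in sham (adjusted p = 0.00248) and -0.89 ± 0.19 in uninephrectomized dogs. CYP11A1 was called higher in sham atria, H6PD lower in sham atria and SRD5A3 higher in uninephrectomized atria, and these 3 lay under log2 3 in each group. Of the 11 genes, 1 was called higher and 2 lower in sham atria, where 11.2% and 9.62% of all tested probe sets were. In uninephrectomized atria 1 was called higher and 1 lower, against 14.7% and 12.5%.

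NR3C1, the receptor, read lower after uninephrectomy on all 3 of its probe sets in both chambers, and no difference passed the test. In sham atria the brightest probe set read 6.38, 6.35, 6.34, 6.10 and 5.95 and in uninephrectomized atria 5.52, 6.19, 5.84, 6.09 and 5.83. The groups overlapped, with 3 of 5 uninephrectomized atria below every sham atrium. Sham ventricles read 6.44, 6.27, 5.91, 6.19 and 5.91 and uninephrectomized ventricles 6.15, 6.09, 6.03, 5.63 and 6.10. The differences were -0.33 ± 0.14 in the atrium (interval -0.62 to -0.04, adjusted p = 0.697, exact permutation p = 0.0397) and -0.14 ± 0.14 in the ventricle (interval -0.43 to 0.14, adjusted p = 0.860).

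NR3C1 probe set 2 separated the atrial groups. It read 5.40, 5.40, 5.71, 5.61 and 5.43 in sham and 4.44, 5.29, 4.96, 5.23 and 4.88 in uninephrectomized atria. All 5 uninephrectomized atria lay below all 5 sham atria. Over all tested probe sets, 0.929% had atrial groups that did not overlap. The difference was -0.55 ± 0.20 (adjusted p = 0.679, exact permutation p = 0.00794). In the ventricles it read 5.30, 5.77, 6.04, 5.51 and 4.76 in sham and 4.92, 4.86, 4.86, 4.47 and 5.27 in uninephrectomized dogs, where sham array 5 lay among the uninephrectomized values. That difference was -0.60 ± 0.20 (adjusted p = 0.623, exact permutation p = 0.0635). The dimmest NR3C1 probe set differed by -0.27 ± 0.21 in the atrium and -0.28 ± 0.21 in the ventricle.

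The 3 NR3C1 probe sets followed each other loosely within groups, with correlations of the deviations between 0.242 and 0.509 over 20 arrays. The receptor showed no chamber difference by test on any probe set, at 0.08 ± 0.14 in sham and -0.11 ± 0.14 in uninephrectomized dogs for the brightest. Its group means ran from 6.22 in sham atria through 6.14 in sham ventricles and 6.00 in uninephrectomized ventricles to 5.89 in uninephrectomized atria, and each neighbouring pair differed by less than the SD of either group, 0.19 to 0.26.

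**Figure D2:**
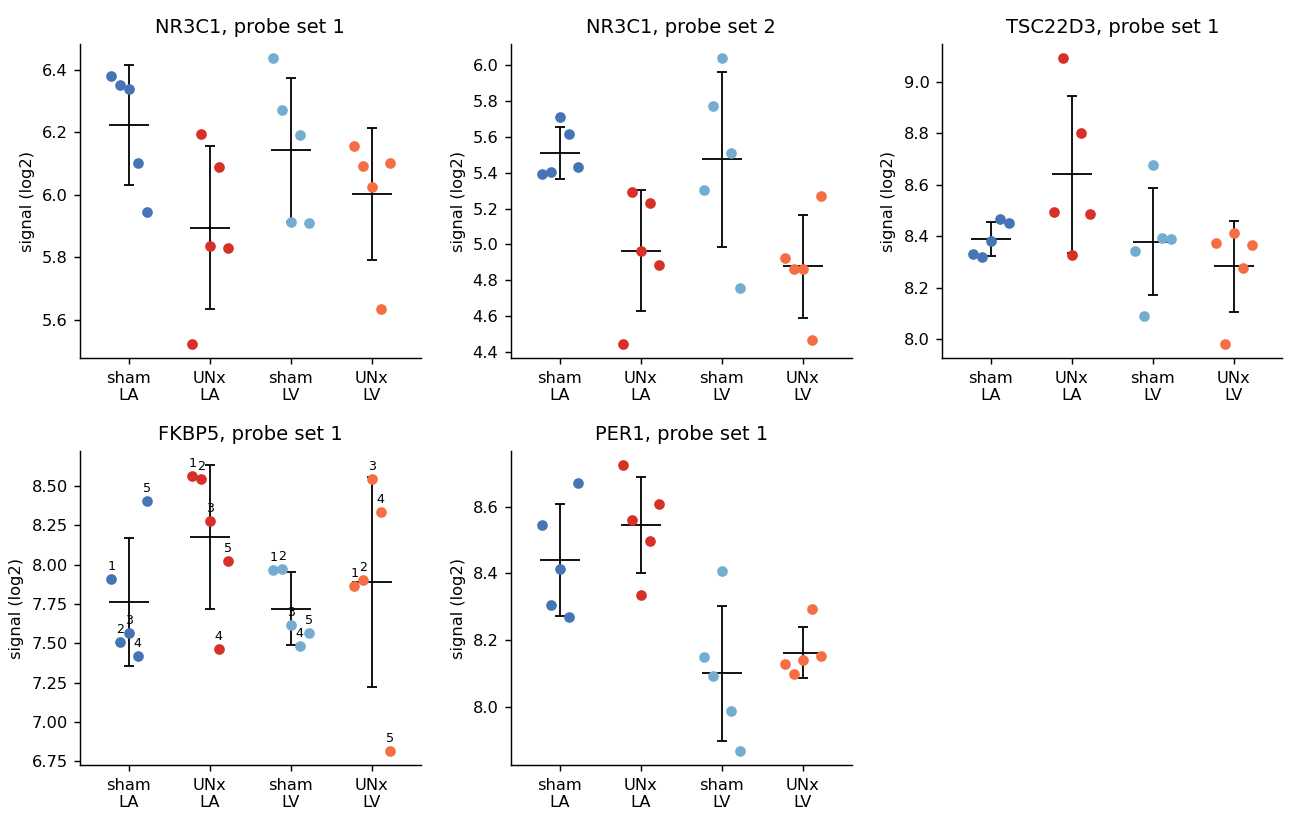
Signal (log2, vertical axes that do not start at 0) of NR3C1 probe sets 1 and 2 and of the brightest probe sets of TSC22D3, FKBP5 and PER1 on each array, by group. Points are arrays, wide bars group means and whiskers ± 1 SD; label numbers are given for FKBP5. NR3C1 probe set 2 does not overlap between sham (5.40 to 5.71) and uninephrectomized atria (4.44 to 5.29), and PER1 does not overlap between uninephrectomized atria and ventricles.

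Genes that hold and fold the receptor did not differ between operations by test. HSP90AA1, the inducible cytosolic HSP90, had a mean of 12.5 in each group and differences of -0.01 ± 0.08 and -0.05 ± 0.08 in atrium and ventricle. HSP90AB1 differed by 0.01 ± 0.11 and 0.02 ± 0.11, PTGES3 (the co-chaperone p23) by -0.11 ± 0.13 and 0.06 ± 0.13, and FKBP4, which competes with FKBP5 on the receptor complex, by -0.10 ± 0.12 and -0.04 ± 0.12. Of 29 measured receptor, chaperone and coregulator genes 13 had positive and 16 negative atrial differences, with a median of -0.01, and 19 had positive and 10 negative ventricular differences, with a median of 0.06. The genes at an unadjusted p under 0.05, NR3C1 apart, are named after their values were seen: PPID, the cyclophilin 40 co-chaperone, at -0.15 ± 0.07 in both chambers, and in the ventricle CDC37, a kinase co-chaperone, at 0.44 ± 0.17 (adjusted p = 0.683) and MED1, a Mediator subunit, at 0.18 ± 0.08. Between chambers the list held 2 higher and 3 lower calls in sham atria, where 11.2% and 9.62% of all tested probe sets were called, and 3 higher and 6 lower in uninephrectomized atria, where 14.7% and 12.5% were. BAG1, an HSP70 exchange factor, was lower in sham atria than in sham ventricles by test, at -2.21 ± 0.15 (adjusted p = 3.02e-09). HSPA4 and FKBP4 were lower in the atrium and NCOA1, a steroid receptor coactivator, was higher, in both kinds of dog.

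TSC22D3 was tight in sham atria and reached higher values on some uninephrectomized atrial arrays. Its brightest probe set read 8.33, 8.32, 8.38, 8.47 and 8.45 in sham atria and 8.50, 9.09, 8.33, 8.80 and 8.49 in uninephrectomized atria. In the ventricles it read 8.34, 8.09, 8.68, 8.39 and 8.39 in sham and 8.38, 7.98, 8.41, 8.28 and 8.36 in uninephrectomized dogs. The 2 highest atria, arrays 2 and 4, were also among the 3 highest in HSD11B1, while uninephrectomized ventricular array 2, the one with high HSD11B1, had the lowest TSC22D3 of its group.

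No surgery difference of TSC22D3 passed the test. It was 0.25 ± 0.13 in the atrium (adjusted p = 0.765, 4 of 5 arrays above every sham atrium) and -0.10 ± 0.13 in the ventricle (adjusted p = 0.910). The difference of the 2 effects was 0.35 ± 0.18 (interval -0.03 to 0.72). The dimmer TSC22D3 probe set, whose deviations correlated with the brightest at only 0.292, differed by 0.38 ± 0.18 in both chambers. Between chambers TSC22D3 was higher in uninephrectomized atria than ventricles, 8.64 ± 0.31 (SD) against 8.28 ± 0.18 (SD), a difference of 0.36 ± 0.13 (adjusted p = 0.0432), and differed by 0.01 ± 0.13 in sham dogs. This call is marginal: it held in 15 of 32 alternative analyses, with adjusted p from 0.0173 to 0.158, and the dimmer probe set differed by 0.01 ± 0.18. Below the uninephrectomized atria, the means of sham atria (8.39), sham ventricles (8.38) and uninephrectomized ventricles (8.28) differed by less than the SD of the ventricles.

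FKBP5 varied from array to array in all groups. It read 7.91, 7.51, 7.56, 7.42 and 8.41 in sham atria and 8.57, 8.54, 8.28, 7.46 and 8.03 in uninephrectomized atria. The ventricles read 7.96, 7.97, 7.62, 7.48 and 7.57 in sham and 7.86, 7.90, 8.55, 8.33 and 6.81 in uninephrectomized dogs. Both pairs of groups overlapped. The means ran from 8.18 in uninephrectomized atria through 7.89 in uninephrectomized ventricles and 7.76 in sham atria to 7.72 in sham ventricles, each step smaller than the SDs of 0.41 to 0.67 in the first 3 of these groups. The differences were 0.41 ± 0.28 in the atrium (interval -0.17 to 0.99, adjusted p = 0.804) and 0.17 ± 0.28 in the ventricle (adjusted p = 0.933). The dimmer probe set followed the brightest at 0.904 within groups and differed by 0.83 ± 0.36 in the atrium (adjusted p = 0.730).

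FKBP5 moved with a measure of RNA quality. The array carries control probe sets along the actin, GAPDH and EF1A transcripts, and the log2 gap between their 3' end and their middle or 5' part grows when fewer long copies are labelled. Over the 10 atria, FKBP5 deviations from the group mean correlated with those of the gap at r = -0.75 (exact permutation p = 0.0247, adjusted over 10 relations p = 0.123; rho = -0.61, p = 0.0835), and at r = -0.53 without the 2 arrays of most extreme gap. Over the 10 ventricles r was -0.62 (exact permutation p = 0.0066, adjusted p = 0.066; rho = -0.75, p = 0.0159), and -0.89 without the 2 extreme arrays. These values use control probe sets brighter than log2 8, a limit set after their levels were seen. With dim control probe sets included, as first computed, r was -0.86 in atria and -0.85 in ventricles (exact permutation, each with adjusted p = 0.0118).

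The gap averaged 1.19 in sham and 1.10 in uninephrectomized atria (exact permutation p = 0.532) and 1.42 in sham and 1.14 in uninephrectomized ventricles (p = 0.0635). With the gap as a covariate the FKBP5 difference was 0.29 ± 0.21 in the atrium and -0.23 ± 0.23 in the ventricle, and with the wider gap 0.15 ± 0.16 and -0.38 ± 0.17. The sign of the ventricular FKBP5 difference thus turned with the covariate. Between chambers FKBP5 differed by 0.04 ± 0.28 in sham and 0.28 ± 0.28 in uninephrectomized dogs. With the narrower gap the sham difference became -0.29 ± 0.23 and with the wider gap 0.47 ± 0.17 (adjusted p = 0.0513), of opposite sign. With the wider gap the difference in uninephrectomized dogs became 1.00 ± 0.19 (adjusted p = 0.000918), and with the narrower gap 0.23 ± 0.21 (adjusted p = 0.453). The wider gap itself ran higher in atria, from 4.07 to 4.81 in uninephrectomized atria and from 3.635 to 4.30 in uninephrectomized ventricles. In sham dogs it ran from 4.36 to 4.76 and from 3.98 to 4.57. Wider gap and chamber are thus partly confounded in these chamber differences. No other of the 5 genes correlated with either gap past adjustment.

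**Figure D3:**
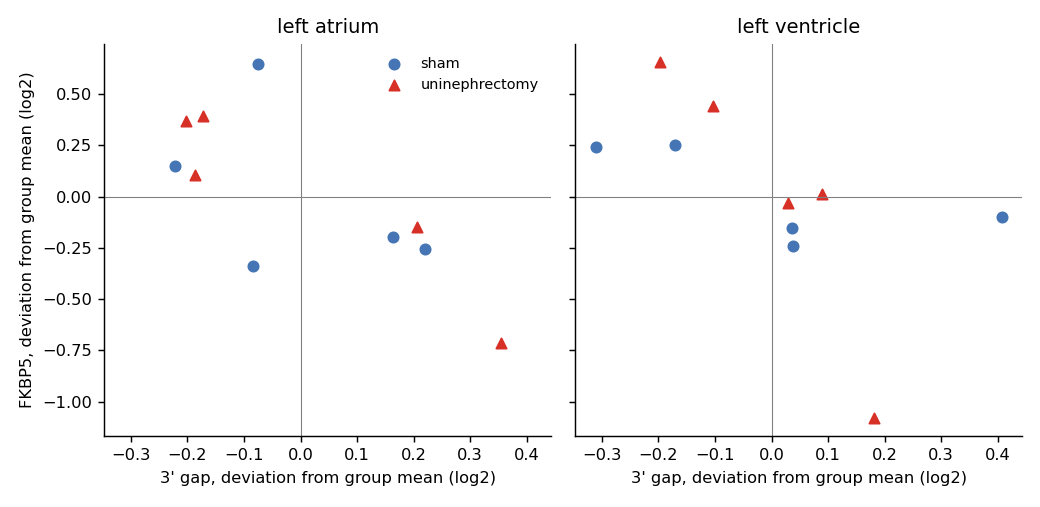
FKBP5 against the 3' gap of the control transcripts, each as the deviation of an array from its group mean (log2), for the 10 atria and the 10 ventricles. Each point is 1 array, with circles for sham and triangles for uninephrectomy; arrays with a larger gap mostly have less FKBP5 (r = -0.75 in atria and -0.62 in ventricles).

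PER1 was higher in atria than in ventricles and did not differ between operations by test. Its brightest probe set read 8.54, 8.30, 8.41, 8.27 and 8.67 in sham atria and 8.15, 8.09, 8.41, 7.99 and 7.87 in sham ventricles. In uninephrectomized dogs it read 8.72, 8.56, 8.33, 8.50 and 8.61 in atria and 8.13, 8.10, 8.14, 8.29 and 8.15 in ventricles. The means ran from 8.54 in uninephrectomized and 8.44 in sham atria to 8.16 in uninephrectomized and 8.10 in sham ventricles, and within a chamber they differed by less than the sham SD. Sham ventricle 3 reached the sham atria, whereas every uninephrectomized atrium lay above every uninephrectomized ventricle. Over all tested probe sets, 14.3% had sham chambers that did not overlap and 21.0% had uninephrectomized chambers that did not.

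PER1 differed between chambers by 0.34 ± 0.10 in sham dogs (adjusted p = 0.0183) and by 0.38 ± 0.10 in uninephrectomized dogs (interval 0.18 to 0.59 on the log2 scale, adjusted p = 0.00675). The call in uninephrectomized dogs held in all 32 alternative analyses run on this probe set, which do not include the mean over the PER1 probe sets. The sham call was lost without sham atrial array 5 (adjusted p = 0.057), without sham ventricular array 5 (adjusted p = 0.0577) and when only the sham arrays were fitted (adjusted p = 0.0687). The surgery differences of PER1 were 0.10 ± 0.10 in the atrium and 0.06 ± 0.10 in the ventricle (adjusted p = 0.867 and 0.932). The second PER1 probe set differed by 0.26 ± 0.13 between chambers in both kinds of dog, without a call. Probe sets 3 and 4 were dim, at 2.46 and 2.11, and were not called between chambers. They differed by 0.18 ± 0.14 and -0.05 ± 0.07 in uninephrectomized dogs and by -0.12 ± 0.14 and -0.002 ± 0.07 in sham dogs. Probe sets 5 and 6, at 1.76 and 1.66, were not tested. The mean of the 4 tested PER1 probe sets differed by 0.12 in sham dogs (adjusted p = 0.254).

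**Figure D4:**
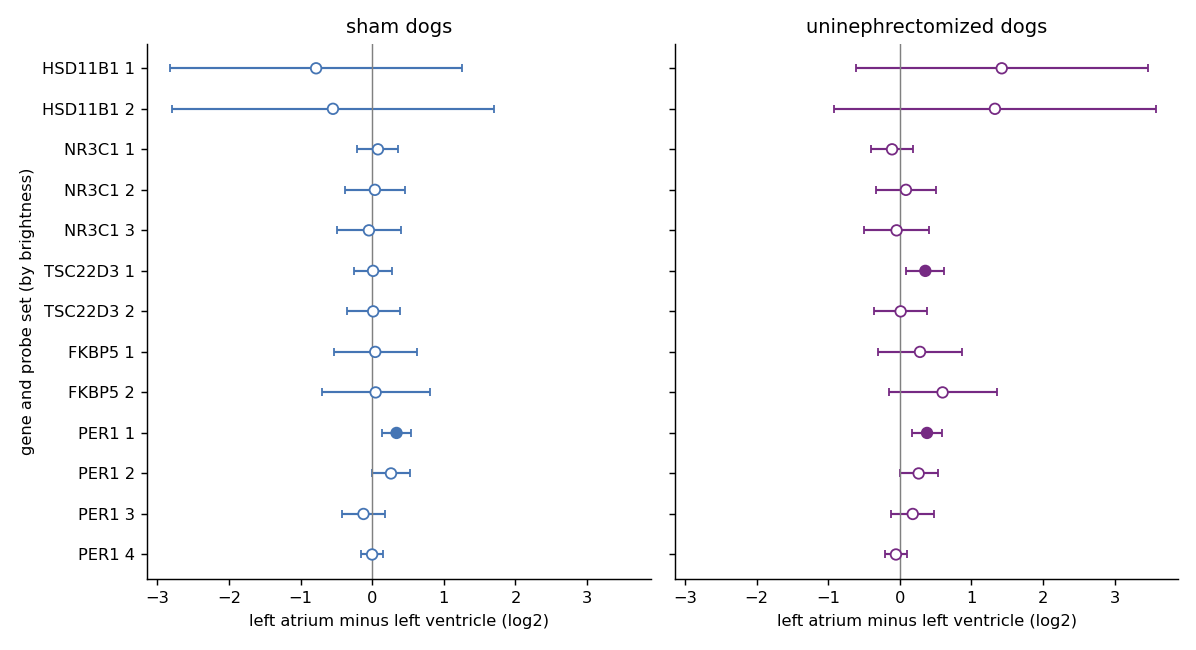
Left atrium minus left ventricle (log2 difference, horizontal axis) for the 13 tested probe sets in sham and in uninephrectomized dogs, n = 5 arrays per group. Points are limma estimates and bars 95% confidence intervals, and filled points passed an adjusted p under 0.05: PER1 probe set 1 on both sides and TSC22D3 probe set 1 in uninephrectomized dogs.

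Across the 13 tested probe sets, uninephrectomy gave no call in either chamber, and 0.0% of all tested probe sets were called there. At an unadjusted p under 0.05 stood 6 of the 13 in the atrium, where 6.69% of all tested probe sets did, and 2 of 13 in the ventricle, against 6.67%. In the atrium 2 of the 13 separated the groups, where 0.929% of all tested probe sets did. In the ventricle none of the 13 separated the groups, where 0.992% of all tested probe sets did. The atrial 6 are both HSD11B1 probe sets, NR3C1 probe sets 1 and 2, and the dimmer probe sets of TSC22D3 and FKBP5. The ventricular 2 are NR3C1 probe set 2 and the dimmer TSC22D3 probe set. Probe sets of 1 gene read the same transcript, so these are not independent counts. The genes were also chosen with earlier results of these data known, so these counts cannot be weighed against the shares over all probe sets. None of the 13 stood under 0.05 for the difference of the effects, where 2.97% of all tested probe sets did. Between chambers 1 of 13 was called in sham dogs and 2 of 13 in uninephrectomized dogs, beside 20.8% and 27.3% called over all tested probe sets.

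**Figure D5:**
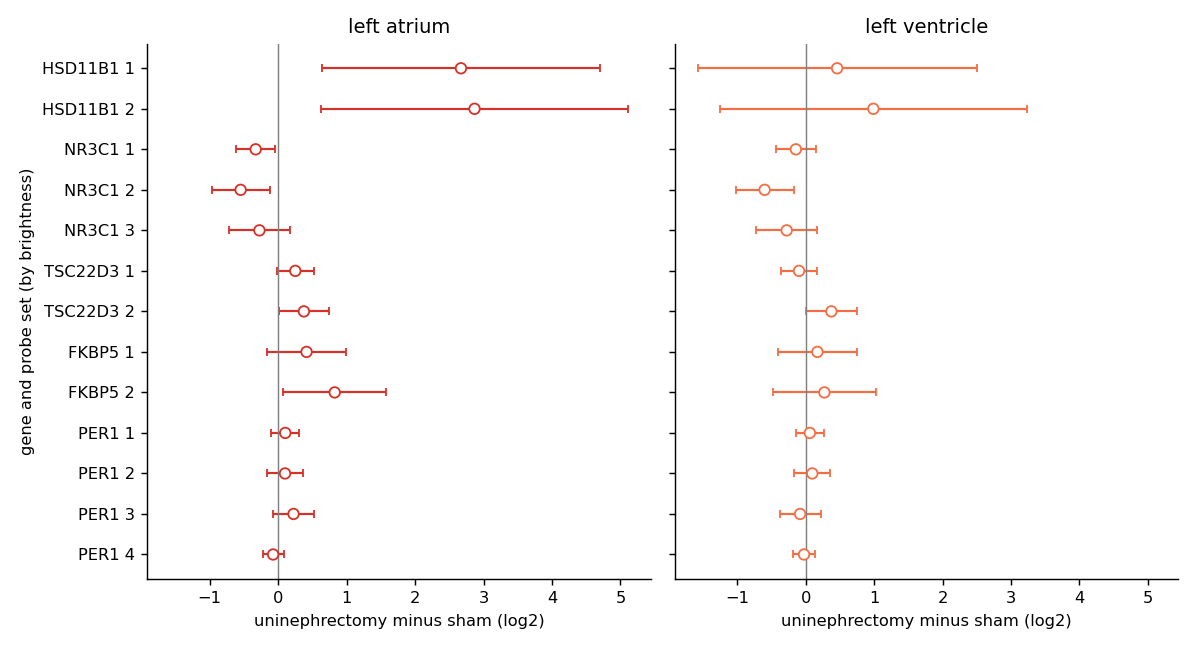
Uninephrectomy minus sham (log2 difference, horizontal axis) for the 13 tested probe sets in the left atrium and the left ventricle, n = 5 arrays per group. Points are limma estimates and bars 95% confidence intervals; open points did not pass an adjusted p under 0.05, and all are open. HSD11B1 has the widest intervals in both panels and the largest estimates in the atrium, and the 3 NR3C1 estimates are negative in both chambers.

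A wider list of 43 measured glucocorticoid-induced genes, which includes TSC22D3, FKBP5 and PER1, held no call after uninephrectomy. In the atrium 30 of the 43 differences were positive with a median of 0.10, beside 48.9% positive and a median of -0.003 over all tested probe sets. In the ventricle 22 were positive with a median of 0.03. Among classical targets, DUSP1, the phosphatase that ends MAP kinase signalling, differed by 0.38 ± 0.21 in the atrium and 0.32 ± 0.21 in the ventricle (adjusted p = 0.775 and 0.782). ZBTB16, a transcription factor strongly induced by glucocorticoid in many tissues, differed by 0.13 ± 0.14 and 0.14 ± 0.14, with means from 8.87 to 9.09.

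Of the 43, the genes at an unadjusted p under 0.05, picked by their values, were FAM107A (0.36 ± 0.16) and MERTK, a receptor for the uptake of dead cells (0.21 ± 0.07), in the atrium, and PTGDS, a prostaglandin D synthase (0.53 ± 0.16, adjusted p = 0.558), and SESN1 (-0.19 ± 0.07) in the ventricle. SGK1, a kinase that promotes sodium uptake, differed by -0.20 ± 0.18 in the atrium and -0.14 ± 0.18 in the ventricle, and PDK4, which restrains glucose oxidation, by -0.14 ± 0.27 and -0.04 ± 0.27. The metallothionein MT2A differed by 0.04 ± 0.13 and -0.13 ± 0.13 and NFKBIA, the inhibitor of NF-kappaB, by 0.10 ± 0.07 and -0.04 ± 0.07. KLF9, a transcription factor that glucocorticoid induces, differed by -0.08 ± 0.23 and 0.08 ± 0.23, and was called higher in sham atria than sham ventricles (0.70 ± 0.23, adjusted p = 0.0368). KLF15 was dim, with means from 1.97 to 2.05. CEBPD and NR3C2, the mineralocorticoid receptor, had no probe set under a single symbol and were not analysed here.

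Between chambers the induced list held calls in both directions. In sham dogs 9 of 43 were higher in the atrium and 5 lower, where 11.2% and 9.62% of all tested probe sets were, and in uninephrectomized dogs 14 were higher and 5 lower, against 14.7% and 12.5%. ANGPTL4, an inhibitor of lipoprotein lipase, had the largest difference of the list, at 8.35 ± 0.62 (SD) in sham atria and 5.93 ± 0.62 (SD) in sham ventricles, a difference of 2.42 ± 0.40 (adjusted p = 0.000275). ZFP36, which destabilises inflammatory mRNAs, differed by 1.30 ± 0.29, MAOA, a monoamine oxidase, by 1.04 ± 0.13, CDKN1A, a cell cycle inhibitor, by 0.80 ± 0.27 and ANXA1, an anti-inflammatory protein, by 0.73 ± 0.18 in sham dogs. Lower in the atrium were GLUL, glutamine synthetase, at -1.21 ± 0.35, FOXO1 at -0.61 ± 0.18 and TRIM63, a muscle ubiquitin ligase, at -0.54 ± 0.10. All of these were called in uninephrectomized dogs too.

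Genes that glucocorticoids are known to repress gave no call after uninephrectomy among 16 measured, with median differences of -0.06 in the atrium and -0.03 in the ventricle. Between chambers 2 were higher and 2 lower in sham atria, and 3 higher and 2 lower in uninephrectomized atria, where 20.8% and 27.3% of all tested probe sets were called in either direction. MMP3, a matrix metalloproteinase, was higher in atria by 3.07 ± 0.74 in sham dogs (adjusted p = 0.00578). PTGS2, cyclooxygenase 2, was higher in atria by 1.26 ± 0.41 in sham dogs, and SELE, an endothelial adhesion molecule, lower by test, at -0.92 ± 0.23.

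PER1 also belongs to the clock, whose genes oscillate through the day, and the hour of tissue collection is not in the labels. Of 15 measured clock genes none was called after uninephrectomy. ARNTL (BMAL1), the partner of CLOCK, differed by 0.32 ± 0.22 in the atrium and 0.02 ± 0.22 in the ventricle, and PER2 and PER3 were dim, with means from 1.82 to 1.97 and from 2.02 to 2.12. NR1D1 and DBP, outputs of the clock, had no probe set under a single symbol and were not analysed here. Between chambers 3 of the 15 were called higher in sham atria and 4 in uninephrectomized atria, with none lower, where 11.2% and 14.7% of all tested probe sets were called higher and 9.62% and 12.5% lower. They were PER1, BHLHE40 at 0.54 ± 0.11 and BHLHE41 at 1.06 ± 0.10, both repressors of clock transcription, in sham dogs, and CSNK1D, a kinase that marks PER proteins, in addition in uninephrectomized dogs.

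The 5 genes were set against each other within each chamber, as deviations from the group means over 10 arrays. Of 20 relations none passed adjustment. FKBP5 and PER1 in atria came closest, with r = 0.63 (exact permutation p = 0.0671, adjusted p = 0.813) and rho = 0.73 (exact permutation p = 0.0301, adjusted p = 0.603), and r was 0.58 without the 2 arrays farthest in FKBP5. HSD11B1 and TSC22D3 are given without a pooled value, since the arrays of HSD11B1 fell into separate clusters.

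For each gene, the probe sets whose deviations from the 4 group means most resembled it over 20 arrays are given as a description. For FKBP5 they were MTOR, the growth kinase, at 0.918, then THOC6, SRSF4, a splicing factor, UBE2J2 and KLHL12, down to 0.886. For TSC22D3 they were S100A4, a calcium-binding protein of motile cells, at 0.876, then MARCO, SNAPC4, CRTC2 and PDE1A, down to 0.808. S100A4 had means of 6.74 and 7.26 in sham and uninephrectomized atria and 5.84 and 5.58 in the ventricles. For NR3C1 they were SECISBP2L at 0.821, DUSP11, SRBD1, MSI2 and ZRANB2, and for PER1 INTS8 at 0.757, IFT172, TRIP12, MVP and PPP1R10. For HSD11B1 the closest were PRKX at 0.818, KDM6A, FAM71E1, LOC491382 and LOC477353, which varied little, with deviations spanning 0.30 to 0.63 against 6.61 for HSD11B1. These correlations pool over the separate clusters of HSD11B1 arrays and only order the genes. None of these 5 genes spanned as wide a range over the arrays as HSD11B1. All of them but KDM6A had a mean under log2 3 over the arrays. So had KLHL12 (2.25), MARCO (1.88, close to the filter), PDE1A (2.19), SRBD1 (2.77), MSI2 (2.80) and PPP1R10 (2.03).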

How the data were processed

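Per the labels, total RNA was extracted with Trizol and 100 ng was amplified and biotin labelled with the Affymetrix IVT Express kit, 1 canine array per tissue sample. The deposited values lie between 0.43 and 15.0 and were read as log2 signals from their range, since the authors' file states no base. The summarisation and normalization are not given in the sources used here, and no further normalization was applied. Signals that crowd near the low end compress log2 differences of dim probe sets.

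Of 43035 probe sets, 111 controls and the 30% with the lowest mean (log2 under 1.87) were left out. The remaining 30047 were fitted with limma 3.58.1 in R 4.3.3 (lmFit, eBayes, 4 group means, 16 residual degrees of freedom, two-sided, Benjamini-Hochberg). The method was tested on simulated data. Symbols came from the supplied annotation, in which 29264 probe sets have 1 symbol, 439 several and 13332 are not listed. Lists and marker means use the brightest probe set per gene. Genes named beyond the 5 members are list genes called at an adjusted p under 0.05, 21 list genes given whatever their values, and the 5 genes per member with the most correlated deviations. List genes at an unadjusted p under 0.05 and single cell type markers were also named, after their values were seen. The genes, lists and rules were chosen with earlier results of these data known. The labels do not say which dog gave each sample, so p-values measure the spread between these samples. Equal numbers were checked for pairing by correlating deviations from group means (sham 0.209 to 0.463, taken as paired from the data; uninephrectomized -0.235 to 0.115, not paired). Alternatives changed the scaling, filter, weights, variance model, samples fitted, gap covariate, replicate block, and left out each array. The precision is limited by 5 arrays per group.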

Additional observations from a re-analysis of the deposited data

Results flagged for a closer look

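Of 60 groups of 5 arrays checked, over 15 probe sets and 4 groups, 4 held an array far from the others; chance gives such an array in about 1 of 20 groups. HSD11B1 on uninephrectomized ventricular array 2 read 9.391 on its brightest probe set, where the next array read 5.138, and 9.407 on the other, where the next read 4.26. NR3C1 on its brightest probe set was lowest on uninephrectomized ventricular array 4, at 5.634, with the nearest array at 6.025. PER1 on its brightest probe set was highest on the same array 4, at 8.293, with the nearest at 8.153.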

How the results depend on the processing

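Called differences. PER1 probe set 1 in uninephrectomized dogs held under all alternatives run on it, from 0.34 to 0.43. These do not include the mean over the PER1 probe sets, and PER1 probe sets 2 to 4 were not called in the reported fit. The number of the 13 probe sets called between chambers in uninephrectomized dogs fell to 1 in several alternatives, in each case through loss of TSC22D3. These were quantile normalization, no filter, only the 2 groups fitted and a fixed replicate block. With the wider 3' gap as a covariate, which is partly confounded with chamber, the number was 4, FKBP5 among them. The wider gap was the one first computed, and the choice between the 2 gaps was made after seeing the data. The number ranged from 1 to 3 when each array was left out. In sham dogs it was 2 with the wider gap and 0 to 1 in the leave-outs. With only the sham groups fitted, as unpaired arrays, the 1 call was HSD11B1 probe set 2 (adjusted p = 0.0397), not PER1. With the replicate number as a random replicate block, though the numbers pair sham arrays only, 7035 probe sets were called between sham chambers and 9010 between uninephrectomized chambers, beside 6257 and 8190, and no call among the 5 genes changed.

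Surgery. The count of all probe sets called was 0 to 1 in the atrium and 0 to 4 in the ventricle when each array was left out, and 1 in the ventricle with values under log2 3 set to 3. None belonged to the 5 genes.

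Signs. FKBP5 between sham chambers turned to -0.022 with quantile normalization, -0.0056 with array weights, -0.29 with the narrower gap covariate (0.47 with the wider), and ranged from -0.12 to 0.13 in the leave-outs, and its ventricular surgery difference turned to -0.23 and -0.38 with the narrower and wider gap. NR3C1 and TSC22D3 between sham chambers turned to -0.056 and -0.028 with quantile normalization, and TSC22D3 to -0.011 with the wider gap and to -0.061 at the lowest and 0.086 at the highest in the leave-outs. TSC22D3 after surgery in the ventricle turned to 0.14 as the mean of its probe sets. HSD11B1 in the ventricle ranged from -0.52 to 0.83 in the leave-outs, the FKBP5 difference of effects from -0.028 to 0.42 and that of PER1 from -0.034 to 0.10. The cause was not tested. These values lie within 1 standard error of 0 in the reported fit. All 3 NR3C1 probe sets stayed negative after surgery in both chambers, and HSD11B1 stayed positive in the atrium, under every alternative run.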
